A study of Mus musculus with 12 samples.

Results

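The genes described here are 10 genes of the Paneth cell, the alpha-defensins Defa3, Defa21, Defa26, Defa32 and Defa36 and the granule or secreted proteins Itln1, Lyz1, Ang4, Pla2g2a and Mptx1. They were read by 17 of 39429 probes and are 10 of 30142 genes or transcripts on Agilent whole-genome mouse arrays hybridised with Cy3-labelled cRNA. The genes were chosen as a list with their levels on these arrays known, so their levels and differences are given as a description, with no test. Probes were found by gene name, and the older names Gm15308, Gm21498 and 1810030J14Rik were matched through their accessions to Defa32, Defa36 and Mptx1.

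The study compared colorectal tissue of female C57BL/6N mice aged 14 weeks in 3 groups of 4 arrays. Wild-type mice gave normal tissue, and mice with the genotype Apc+/Δ716 gave both normal tissue (here Apc normal) and polyps. Apc limits Wnt signalling, and the Δ716 allele is a truncating, germline allele for which these mice are heterozygous. Whether polyp cells kept the other, wild-type allele was not tested. Each polyp array carries the mouse number of an Apc normal array (103, 106, 107 or 110), while the wild-type mice are 102, 104, 105 and 108. No source used here says whether polyps of a mouse were pooled.

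Paneth cells are secretory cells at the base of small intestinal crypts that store antimicrobial proteins in granules and supply Wnt and Notch signals to neighbouring stem cells. Their maturation depends on Wnt signalling, and the normal colon of the mouse holds few or none. Alpha-defensins, called cryptdins in the mouse gut, are small cationic peptides that disrupt microbial membranes and are made as propeptides that the protease Mmp7 cuts. The other granule proteins here bind microbial sugars (the lectin Itln1), cut cell walls (the lysozyme Lyz1), hydrolyse bacterial phospholipids (Pla2g2a) or belong to the ribonuclease family (Ang4).

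The defensin genes lie in 1 cluster on chromosome 8 and are near-identical copies, so the probe sequences are shown before the values. The brightest probes of Defa32 (chr8:22639658-22639717, plus strand, mm9), Defa36 (chr8:22675997-22676056, plus strand) and Defa3 (chr8:22427233-22427292, plus strand) read the same stretch of the 3 mRNAs. Capitals mark the bases at which any pair of the 3 differs.
Defa32: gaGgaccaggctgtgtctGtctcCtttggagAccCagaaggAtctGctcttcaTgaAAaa
Defa36: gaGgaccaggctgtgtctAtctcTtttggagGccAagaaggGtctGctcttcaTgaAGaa
Defa3: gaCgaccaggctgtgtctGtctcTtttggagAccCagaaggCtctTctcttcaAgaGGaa
Of 60 bases, Defa32 differed from Defa36 at 6 and from Defa3 at 7, and Defa36 differed from Defa3 at 8. A second Defa32 probe (chr8:22640300-22640359, plus strand, mm9) and the Defa21 probe (chr8:22166019-22166078, plus strand) overlap by 59 bases, and the capitals mark the 10 bases at which they differ there.
Defa32, second probe: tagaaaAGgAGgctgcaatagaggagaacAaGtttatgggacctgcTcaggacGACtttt
Defa21: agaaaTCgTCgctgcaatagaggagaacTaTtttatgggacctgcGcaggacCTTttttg
The annotation of each of the 9 probes of the 5 defensins lists transcripts of at least 1 other named alpha-defensin, among them Defa22 for Defa21, Defa26 and Defa32, and Defa5 for both Defa36 probes. The level given for a defensin is therefore that of a probe, and the copies cannot be told apart.

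RefSeq promoters (GRCm38.p6) were at hand for 7 of the 10 genes, and the 250 bases before the start were searched on both strands for the motifs CTTTGAT and then CTTTGAA, letters of the core that TCF/LEF factors of the Wnt pathway bind. On the other strand they read ATCAAAG and, for the second, TTCAAAG. The motifs differ in 1 base, so they are near-identical to each other. The 3 defensin promoters at hand are shown, with matches in capitals: Defa21 at chr8:21025295-21025544, Defa32 at chr8:21528780-21529029 and Defa36 at chr8:21427178-21427427, all plus strand.
Defa21: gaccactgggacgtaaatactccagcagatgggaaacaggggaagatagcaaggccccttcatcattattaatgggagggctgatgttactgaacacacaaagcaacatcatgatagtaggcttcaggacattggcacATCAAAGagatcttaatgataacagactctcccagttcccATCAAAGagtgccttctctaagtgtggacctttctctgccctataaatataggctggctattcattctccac
Defa32: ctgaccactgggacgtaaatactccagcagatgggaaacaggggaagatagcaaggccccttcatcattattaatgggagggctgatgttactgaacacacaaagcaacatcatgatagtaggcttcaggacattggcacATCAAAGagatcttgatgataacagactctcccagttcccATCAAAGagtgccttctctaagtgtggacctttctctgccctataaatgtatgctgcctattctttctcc
Defa36: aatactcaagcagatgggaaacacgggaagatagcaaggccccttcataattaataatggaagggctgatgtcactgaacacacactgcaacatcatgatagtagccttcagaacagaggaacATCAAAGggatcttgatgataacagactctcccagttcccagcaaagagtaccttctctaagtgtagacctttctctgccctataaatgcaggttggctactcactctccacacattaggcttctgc
The Defa21 and Defa32 promoters were identical at 96.4% of aligned bases, and each matched that of Defa36 at 80% and 79.4%. ATCAAAG occurred at 112 and 72 bases before the start of Defa21, at 110 and 70 before that of Defa32 and at 127 before that of Defa36. CTTTGAA occurred at 208 before the start of Mptx1, and Itln1, Lyz1 and Ang4 had neither motif in this window. Of 32851 mouse promoters in the table, 7.48% held either motif (3.21% CTTTGAT, 4.46% CTTTGAA). A match is a description of letters and not of binding.

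Spots well above background made up 64.6% to 73.8% per array, and no spot was saturated. All wild-type arrays lay on slide 1, so slide and genotype cannot be told apart in comparisons with wild-type tissue. Slides 2 and 3 each held both tissues of 2 mice, with normal tissue at positions 1 and 3 and polyps at positions 2 and 4. A pair of arrays stood apart. In the wild-type array of mouse 108, the mean level of 5 pancreatic acinar genes was 4.92, against −2.38 to −2.19 on the other wild-type arrays. In the Apc normal array of mouse 107, Mptx1 and some intestinal genes lay far from the other Apc normal arrays, as given with Mptx1. A level here is the log2 signal of a probe minus the 75th percentile of its array, and levels of different probes are not compared. The number of arrays limits the precision.

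**Figure D1:**
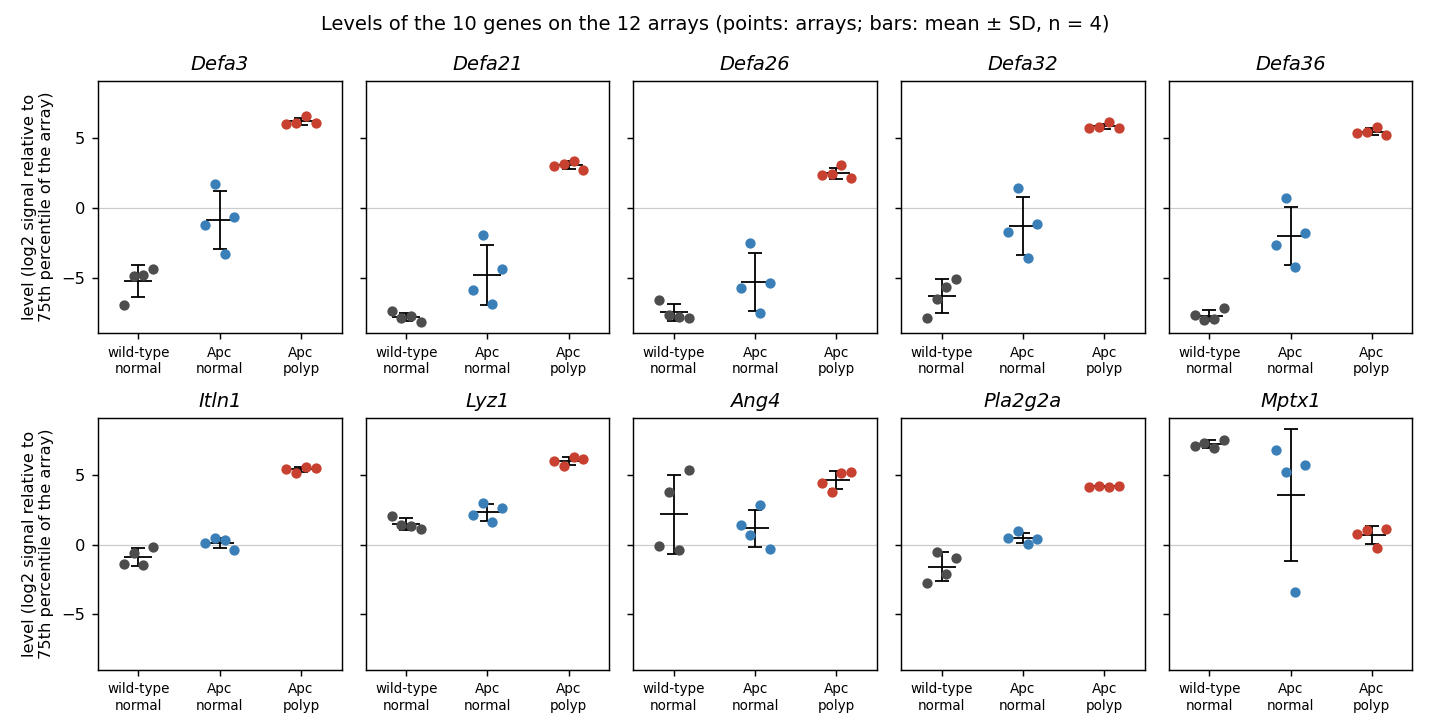
Levels (log2 signal over the array's 75th percentile) of the 10 genes, 1 panel a gene, with 1 point an array in order of mouse number and the mean ± SD of 4 arrays per group. The 5 defensins, Itln1, Lyz1 and Pla2g2a are highest on all 4 polyp arrays, Ang4 overlaps with wild-type tissue, and Mptx1 is highest in wild-type tissue.

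The 5 defensins were at or near background in wild-type tissue, intermediate and variable in Apc normal tissue, and bright in all 4 polyps. Of the 10 genes, 9 had polyp arrays that all lay above all Apc normal arrays, where 20.5% of the 20085 genes tested did so (the list was chosen on this contrast, so nothing is read from the count). By the limma test at adjusted p under 0.05, 45.5% of all genes differed in this comparison. In such bulk tissue, fewer cells of a type and less RNA per cell cannot be told apart.

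Defa3, an abundant cryptdin, stood at −6.96, −4.91, −4.80 and −4.41 on the wild-type arrays of mice 102, 104, 105 and 108. It stood at −1.22, 1.69, −3.34 and −0.65 in the normal tissue of mice 103, 106, 107 and 110 and at 6.01, 6.13, 6.62 and 6.13 in their polyps. The 3 groups did not overlap. Polyps were 137-fold above Apc normal tissue (log2 difference 7.10 ± 0.90, SE, 4 arrays against 4), and the other 2 Defa3 probes gave 7.02 and 6.87.

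Defa32, read by 2 probes, stood at −7.93, −6.50, −5.70 and −5.10 in wild-type tissue, with 2 of the 4 arrays well above background. It stood at −1.75, 1.44, −3.58 and −1.17 in Apc normal tissue and at 5.74, 5.85, 6.15 and 5.73 in polyps of the same mice. The order of the mice in normal tissue was that of Defa3, and the groups again did not overlap. The log2 difference of polyps from Apc normal tissue was 7.13 ± 0.90 (140-fold), and 7.46 on the second probe.

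Defa36 was not well above background on any wild-type array (−7.72, −8.08, −7.95 and −7.16). It stood at −2.69, 0.73, −4.27 and −1.80 in Apc normal tissue and at 5.42, 5.49, 5.83 and 5.22 in polyps. Polyps thus lay at a narrow level, with an SD of 0.25, while Apc normal arrays had an SD of 2.09. The difference between them was 7.49 ± 0.91 (180-fold), and 8.13 on the second probe.

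The probes of Defa21 and Defa26 were well above background on fewer normal arrays than those of the other defensins. Defa21 stood at −7.42, −7.88, −7.78 and −8.16 in wild-type tissue, at −5.92, −1.97, −6.89 and −4.39 in Apc normal tissue, and at 2.99, 3.18, 3.41 and 2.73 in polyps. Defa26 stood at −6.62, −7.68, −7.82 and −7.87, at −5.75, −2.54, −7.57 and −5.37, and at 2.36, 2.45, 3.06 and 2.12. Both were well above background on 0 of 4 wild-type and 2 of 4 Apc normal arrays, and on all 4 polyp arrays. Their polyps lay above Apc normal tissue by 7.87 ± 0.94 (233-fold) and 7.80 ± 0.92 (224-fold), which counts the signal of the dim arrays as measured.

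Against wild-type tissue the defensins reached only bounds where the probe was dim. For a bound, each dim array was raised to its lowest signal well above background where the probe lay under that, before the means were compared. By this measure polyps were at least 2740-fold higher for Defa36 (at least 1044-fold on its second probe), at least 514-fold for Defa21 and at least 345-fold for Defa26. These and all later bounds hold for the main scaling only. As log2 values the bounds of Defa36, Defa21 and Defa26 were 11.42, 9.01 and 8.43. With another background correction (normexp with offset 50) their log2 differences were lower, at 9.77, 7.23 and 6.58. For Defa3 and Defa32, which some wild-type arrays measured, the log2 differences were 11.49 ± 0.52 and 12.17 ± 0.55. The second Defa3 probe gave 13.31.

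**Figure D2:**
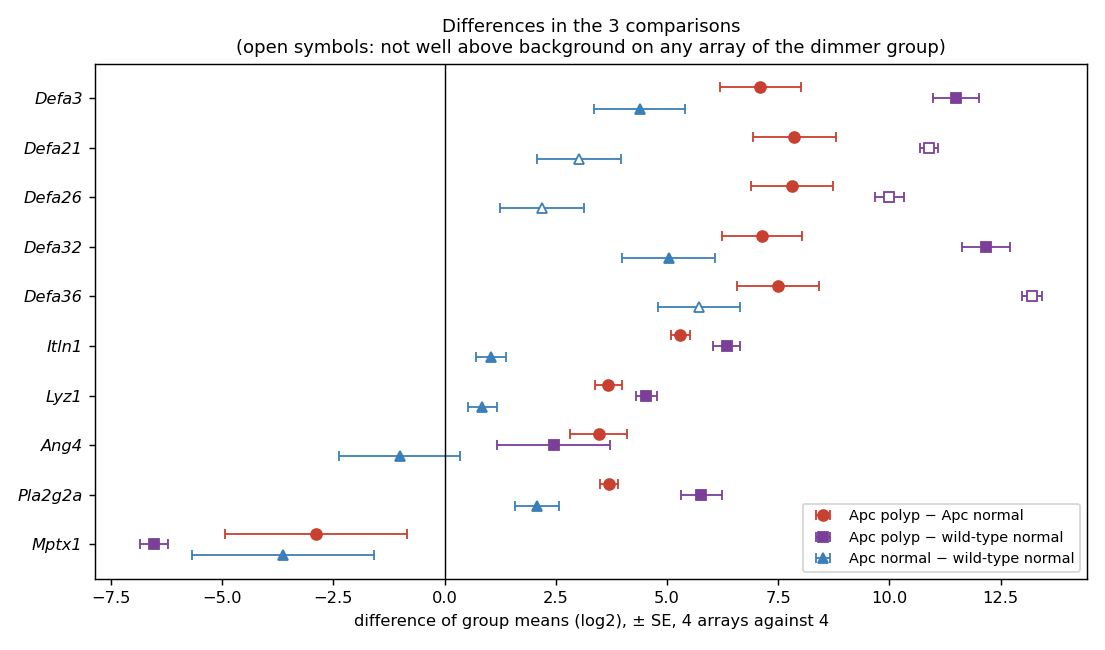
Differences of group means (log2, ± SE, 4 arrays against 4) of the 10 genes in the 3 comparisons, with open symbols where the probe was not well above background on any array of the dimmer group. The defensins lie at 7.10 to 7.87 for polyps against Apc normal tissue and further right for polyps against wild-type tissue, where the open symbols show signal as measured and not a bound, and Mptx1 lies below 0 in all 3 comparisons.

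In Apc normal tissue most alpha-defensin probes placed the mice in the same order at the top and the bottom. Of the 29 alpha-defensin probes well above background on at least 2 Apc normal arrays, 25 were highest in mouse 106 and 25 were lowest in mouse 107. In polyps 20 of the 29 were highest in mouse 107, whose normal tissue was lowest. The polyp minus normal difference of Defa3 was accordingly 9.96 in mouse 107, 7.22 in mouse 103, 6.78 in mouse 110 and 4.45 in mouse 106. That of Defa36 was 10.09, 8.10, 7.02 and 4.76 in the same order. The copies share sequence, so these probes do not count as separate observations of the mice. On slide 2 alone (mice 103 and 106) Defa3 was 5.83 above normal tissue and on slide 3 alone (mice 107 and 110) 8.37. Without the Apc normal array of mouse 106 the mean difference of the 5 defensins was 8.39, and without that of mouse 107 it was 6.72, against 7.48 with all arrays. Neutrophils are known to lack alpha-defensins in mice. The mean level of 9 tested neutrophil genes in normal tissue was −1.10 and −1.23 in mice 106 and 110. It was −3.10 and −3.05 in mice 103 and 107, and Csf3r, Cxcr2 and Mmp8 did not follow that order. S100a8, which did, stood at 0.07 and 0.22 against −5.43 and −2.28. The mice were split in this way with the values known, and the share of all genes with that split was not counted, so nothing is read from it. The part of neutrophils in the defensin levels was not tested.

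**Figure D3:**
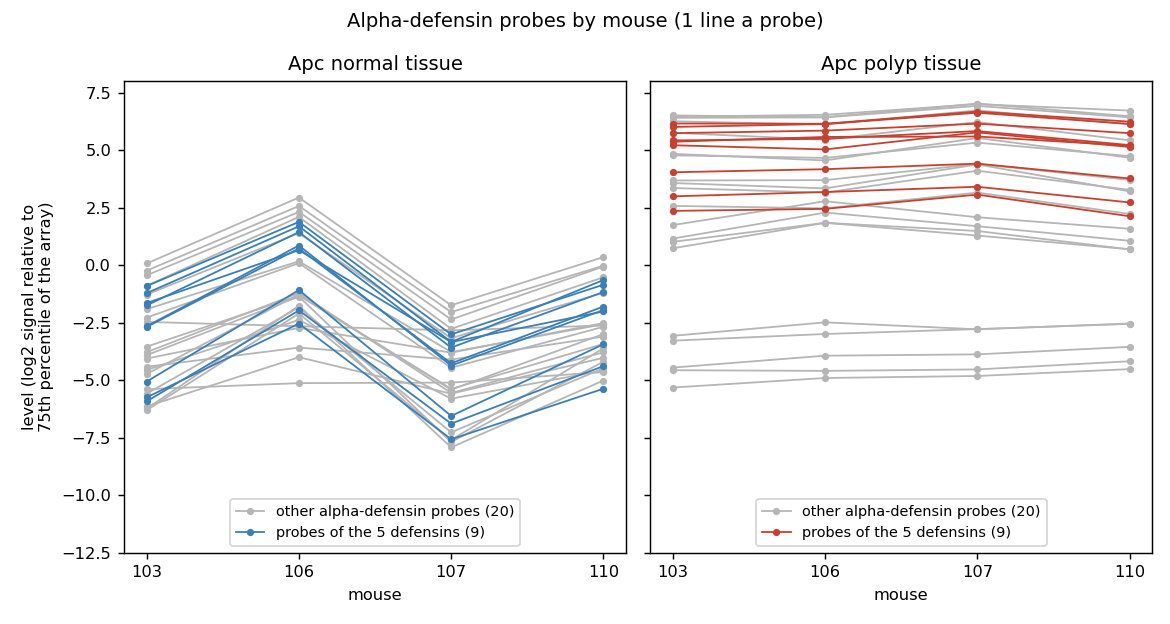
Levels of the 29 alpha-defensin probes well above background on at least 2 Apc normal arrays, 1 line a probe, in the normal tissue (left) and polyps (right) of mice 103, 106, 107 and 110, with the 9 probes of the 5 defensins in colour. In normal tissue 25 lines peak at mouse 106 and 25 are lowest at mouse 107, while polyp levels are nearly flat.

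The array holds 27 further alpha-defensin probes under 20 names. In polyps 23 of them were well above background on all 4 arrays. Of these 23, 18 lay above all Apc normal arrays (a probe bright only in polyps had to differ), where 20.5% of all genes tested did so. The median log2 difference over the 23 was 6.34. Defa1 and Defa23, for example, read 6.27 and 6.74 above Apc normal tissue on their brightest probes. Other copies were dim in polyps. Defa10 was at −8.76 to −7.85 there and was well above background on no array. Defa-ps13 was at −8.83 to −7.91 in polyps but at −2.17, well above background, in the normal tissue of mouse 103. Defa4, whose probe read −7.90, −4.02, −8.06 and −8.58 in wild-type tissue, stood at −4.41, −8.88, −8.02 and −8.86 in the polyps of mice 103, 106, 107 and 110. Defa-rs10 was measured at like levels in all groups, −2.93 to −1.93 in wild-type tissue and −3.07 to −2.49 in polyps. Polyps also overlapped with Apc normal tissue on the probes of Defa-rs12 and Defa-rs4, the brightest Defa31 probe and the second Defa-rs2 probe. Their log2 differences were −0.15, 0.47, 0.37 and 0.18. Probes of a name could disagree, as the other Defa31 probe read 3.83 and the other Defa-rs2 probe 7.45. The copies named here were chosen after their values were seen.

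Itln1, intelectin 1, a secreted lectin that binds sugars of microbial surfaces, stood at −1.40, −0.63, −1.48 and −0.14 in wild-type tissue. It stood at 0.16, 0.44, 0.31 and −0.40 in Apc normal tissue and at 5.43, 5.18, 5.61 and 5.50 in polyps. Normal tissue of the 2 genotypes overlapped and polyps lay apart from both. Polyps were 39.5-fold above Apc normal tissue (5.30 ± 0.21) and 81.2-fold above wild-type tissue (6.34 ± 0.30). The 3 Itln1 probes gave 5.30, 5.44 and 5.53 for the polyps against Apc normal tissue. Unlike the defensins, Itln1 had its lowest Apc normal level in mouse 110, and by mouse its difference was 5.27, 4.73, 5.30 and 5.90 in mice 103, 106, 107 and 110.

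Lyz1, the lysozyme of Paneth cell granules, was well above background on every array. It stood at 2.07, 1.44, 1.31 and 1.13 in wild-type, at 2.10, 2.98, 1.62 and 2.64 in Apc normal and at 6.01, 5.62, 6.32 and 6.12 in polyp tissue. Polyps were 12.8-fold above Apc normal tissue (3.68 ± 0.31) and 23.1-fold above wild-type tissue (4.53 ± 0.23), with no overlap. Within Apc normal tissue its order of mice was that of the defensins, with mouse 106 highest and mouse 107 lowest, over a range of 1.36. The macrophage lysozyme Lyz2, a near relative on the same array, rose by 1.13 ± 0.39 in polyps (2.19-fold, limma adjusted p = 0.0449), from −0.29 to 0.81 in Apc normal tissue to 0.50 to 2.11. Of 9 tested macrophage genes 3 rose in polyps and 0 fell, where 20.5% of all genes tested rose and 24.9% fell. The summed linear signal of the 9 genes was 16.1 to 37.0 in Apc normal tissue and 20.7 to 35.9 in polyps. The part of macrophages in the Lyz1 level was not tested.

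Pla2g2a, the secretory phospholipase A2 of Paneth cells, is known as a modifier of polyp number in Apc mutant mice, and C57BL/6 strains carry a frameshifted allele of it. It stood at −2.77, −0.52, −2.12 and −0.94 in wild-type, at 0.48, 1.0, 0.08 and 0.40 in Apc normal and at 4.13, 4.23, 4.15 and 4.23 in polyp tissue. The 3 groups did not overlap, and the polyps agreed to an SD of 0.05. The differences were 3.69 ± 0.20 (12.9-fold) for polyps against Apc normal tissue, 5.77 ± 0.46 (54.6-fold) against wild-type tissue and 2.08 ± 0.49 (4.22-fold) for Apc normal against wild-type tissue. Of its relatives named Pla2g2, Pla2g2e was 3.44 higher in polyps than in Apc normal tissue (2.13 on its second probe) and Pla2g2d was 1.45 higher (1.91 on its second probe). Pla2g2f differed by 0.38, and Pla2g2c by −1.55 (−0.45 on its second probe).

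Ang4, angiogenin 4, an antimicrobial ribonuclease made by Paneth cells and also by goblet cells of the colon, did not follow the other genes. In polyps it stood at 4.43, 3.79, 5.14 and 5.20 and in Apc normal tissue at 1.40, 0.72, 2.84 and −0.28, a difference of 3.47 ± 0.64 (11.1-fold) with no overlap. In wild-type tissue it stood at −0.06, 3.77, −0.35 and 5.38, so that mice 104 and 108 lay at the lower and upper edge of the polyps and mice 102 and 105 near the lowest Apc normal array. Polyps overlapped with wild-type tissue (2.46 ± 1.27), and so did Apc normal tissue (−1.01 ± 1.35). Without the wild-type array of mouse 108, which carried the acinar genes, these 2 differences were 3.52 and 0.05.

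The high wild-type arrays were those at positions 2 and 4 of the slide, the positions that polyps hold on slides 2 and 3. On the wild-type slide, positions 2 and 4 differed from positions 1 and 3 by 4.78 for Ang4, a difference reached by 6 of the 20085 genes tested, against a median of −0.00050 over all of them. Set against the wild-type arrays at the same positions, the Ang4 difference was 0.07 for polyps and 1.38 for Apc normal tissue. For the other 9 genes the same position difference on the wild-type slide was −0.56 to 1.71, the highest that of Pla2g2a, followed by Defa3 (1.22) and Itln1 (1.05). Position and tissue cannot be told apart for polyps against Apc normal tissue. The relatives of Ang4 showed the same alternation: on the wild-type arrays of mice 102, 104, 105 and 108, Ang3 read 0.67, 4.96, 0.77 and 6.56, and Ang2 read −3.00, 0.23, −4.32 and 1.77. Their differences between polyps and Apc normal tissue were 3.61 for Ang3 and 3.59 for Ang2, and 1.01 ± 0.42 for Ang itself (limma adjusted p = 0.0843). The mean level of 11 goblet cell genes was also higher at positions 2 and 4 of the wild-type slide (5.18 and 5.30, against 4.43 and 4.28). Retnlb carried most of that gap, at −4.31, 1.38, −4.25 and 2.77 in mice 102, 104, 105 and 108, and the mean of the other 10 genes was 5.56 and 5.55 at positions 2 and 4, against 5.30 and 5.14. The mean of all 11 was 4.81 to 5.70 in Apc normal tissue and 3.14 to 4.06 in polyps. Their part in the Ang4 levels was not tested.

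**Figure D4:**
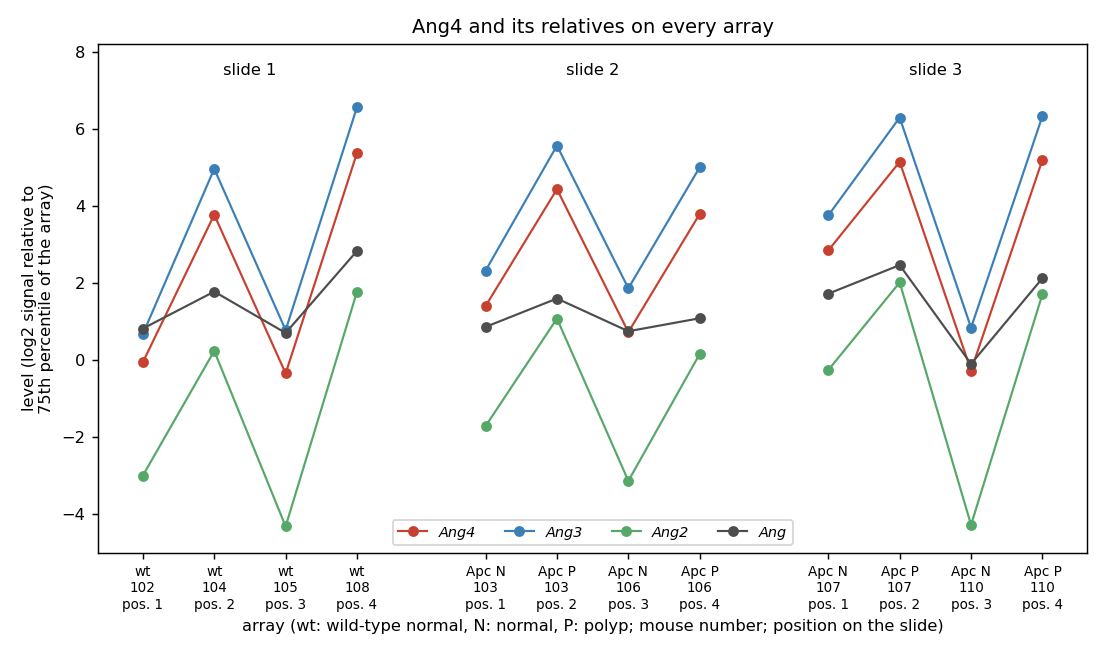
Levels of Ang4, Ang3, Ang2 and Ang (log2 signal over the array's 75th percentile) on the 12 arrays, ordered by slide and position. On slide 1, which held wild-type tissue only, the genes are higher at positions 2 and 4 than at 1 and 3, and on slides 2 and 3 those positions held the polyps.

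Mptx1, mucosal pentraxin 1, a secreted pattern-recognition protein of the pentraxin family, went against the label. It stood at 7.06, 7.32, 6.91 and 7.55 in wild-type tissue, where the defensins were at or near background, and at 0.77, 1.08, −0.23 and 1.12 in polyps. Polyps were 92.0-fold below wild-type tissue (−6.52 ± 0.31), without overlap, and the second probe gave −6.45. On these arrays Mptx1 was therefore bright in normal colorectal tissue and did not move with the defensins.

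In Apc normal tissue Mptx1 stood at 6.78 in mouse 103, 5.20 in mouse 106 and 5.75 in mouse 110, but at −3.43 in mouse 107, below every polyp array. The second probe read −3.89 there. Polyp minus normal was −6.01, −4.12 and −4.63 in mice 103, 106 and 110 and 3.19 in mouse 107. The mean difference from polyps was −2.89 ± 2.05 with all arrays and −5.23 without the Apc normal array of mouse 107. That array also had the absorptive genes Fabp2 at 7.49 (2.02 to 3.89 on the other Apc normal arrays) and Alpi at 1.51 (−5.93 to −4.91). These 2 genes were chosen after their values were seen, and their part in the Mptx1 level was not tested.

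Normal tissue of the 2 genotypes, compared to ask whether these genes differ outside polyps, gave 5 genes with all Apc normal arrays above all wild-type arrays (Defa3, Defa21, Defa32, Defa36 and Pla2g2a), 1 below (Mptx1, though not on its second probe, which overlapped) and 4 that overlapped. Of all genes tested 4.78% lay wholly above and 5.53% wholly below. The log2 difference was 4.39 ± 1.02 for Defa3 and 5.04 ± 1.04 for Defa32, and Defa36 was at least 15.2-fold higher. The second Defa3 probe gave 6.29, and the third at least 20.3-fold. The second probes of Defa32 and Defa36 gave at least 14.4-fold for the former and at least 3.73-fold for the latter. For Defa21 and Defa26, dim in wild-type tissue, Apc normal tissue was at least 2.21-fold higher for the former and at least 1.54-fold for the latter. Itln1 (1.04 ± 0.33) and Lyz1 (0.85 ± 0.33) differed less than Defa3, Defa32 and Defa36. Both overlapped between the genotypes, as did Defa26. Across all genes 34 of 20085 passed the limma test in this comparison (0.169%), 0.149% higher and 0.0199% lower in Apc normal tissue. The same Apc normal arrays enter the comparison with polyps, and the same wild-type arrays that of polyps with wild-type tissue, so the 3 comparisons are not separate evidence. Polyps lay wholly above wild-type tissue for 8 of the 10 genes and wholly below for Mptx1, where 25.3% and 31.3% of all genes did so, and 60.2% passed the limma test (27.4% higher, 32.8% lower).

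Other genes that Paneth cells store or secrete showed a mixed picture. Of 17 tested genes of a list that leaves out the 10, 8 rose in polyps over Apc normal tissue and 1 fell (limma, adjusted over all genes), with a median difference of 1.01 against −0.06 over all genes tested, of which 20.5% rose and 24.9% fell. Mmp7, the protease that activates cryptdins, stood at −0.97, 0.33, 0.26 and −0.48 in the normal tissue of mice 103, 106, 107 and 110 and at 5.76, 5.99, 6.52 and 6.34 in their polyps. It rose 82.7-fold (6.37 ± 0.32, limma adjusted p = 2.27e-05). In wild-type tissue it read −6.38 to −5.13, and Apc normal tissue was 5.50 ± 0.38 above that (adjusted p = 0.00476), which makes it 1 of the 34 genes that differed between the genotypes. Against the wild-type arrays at the same slide positions alone (mice 102 and 105), its difference was 5.99 with limma adjusted p = 0.0671. That fit has fewer wild-type arrays, so slide position and group size cannot be told apart in the lost call. Habp2, a secreted serine protease, rose by 6.90 ± 0.28 in polyps (119-fold, adjusted p = 9.87e-06, 3.86 on its second probe). In Apc normal tissue Habp2 was at least 1.80-fold higher than in wild-type tissue, where it was not well above background (limma adjusted p = 0.0345). Leaving out wild-type mouse 102, 104 or 105, or Apc normal mouse 106, 107 or 110, ended that Habp2 call, at adjusted p of 0.0584 to 0.154.

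The zinc transporter Slc30a2 of Paneth cell granules rose 14.0-fold (3.80 ± 0.33, limma adjusted p = 0.000129), and the lipase-related Pnliprp2 rose 15.2-fold (3.93 ± 0.38, adjusted p = 0.000175). Pnliprp2 read −0.57 on the wild-type array of mouse 108 and −3.37 to −2.94 on the other wild-type arrays. The other risers were the lectin Reg3g (4.50 ± 1.53), the cytokine Tnf (2.84 ± 0.55), Lyz2 and the surface glycoprotein Cd24a (0.77 ± 0.27), and the phospholipase Pla2g5 was the gene that fell (−1.87 ± 0.27, adjusted p = 0.000907). Reg3g (adjusted p = 0.0420), Lyz2 (0.0449) and Cd24a (0.0498) lay near the threshold. Leaving out normal tissue of mouse 103 or 110, or a polyp of mouse 106, 107 or 110, took the count of risers to 5.

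Genes of Paneth cell fate and niche signals moved both ways. Of 25 tested, 6 rose in polyps over Apc normal tissue and 9 fell, with a median of −0.17, where 20.5% of all genes tested rose and 24.9% fell. The transcription factor Sox9, required for Paneth cells, rose 2.51-fold (1.33 ± 0.18, limma adjusted p = 0.000683). The Wnt ligand Wnt3, which Paneth cells secrete, was well above background in polyps only (−4.60 ± 0.73, SD, n = 4). Polyps were at least 2.5-fold higher than Apc normal tissue for Wnt3 (limma adjusted p = 0.000433). Wnt3 entered the test through its polyp arrays alone, so this p sets signal against readings at background. Wnt6, the innate sensor Nod2, Ephb3 and the Notch ligand Dll4 rose too, by 4.89, 1.68, 0.91 and 0.87. The Wnt receptor Fzd5, which Paneth cell maturation needs, fell by 1.77 (± 0.18, limma adjusted p = 0.000223, −1.14 on its second probe), and Fgfr3 fell by 1.94 (± 0.28, adjusted p = 0.000906, −1.50 and −0.062 on its other probes). The secretory fate factors Atoh1, Spdef and Gfi1 fell by 2.14, 1.52 and 1.10, the niche growth factor Egf fell by 2.11, the receptor Lgr4 fell by 0.99 and Xbp1 fell by 0.60. The Notch ligand Dll1 was the ninth, at −1.14, and read 0.47 on its second probe. No gene of this list passed between Apc normal and wild-type tissue (limma, 0 of 25), and 4 had an unadjusted p under 0.05, as did 17.1% of all genes tested.

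**Figure D5:**
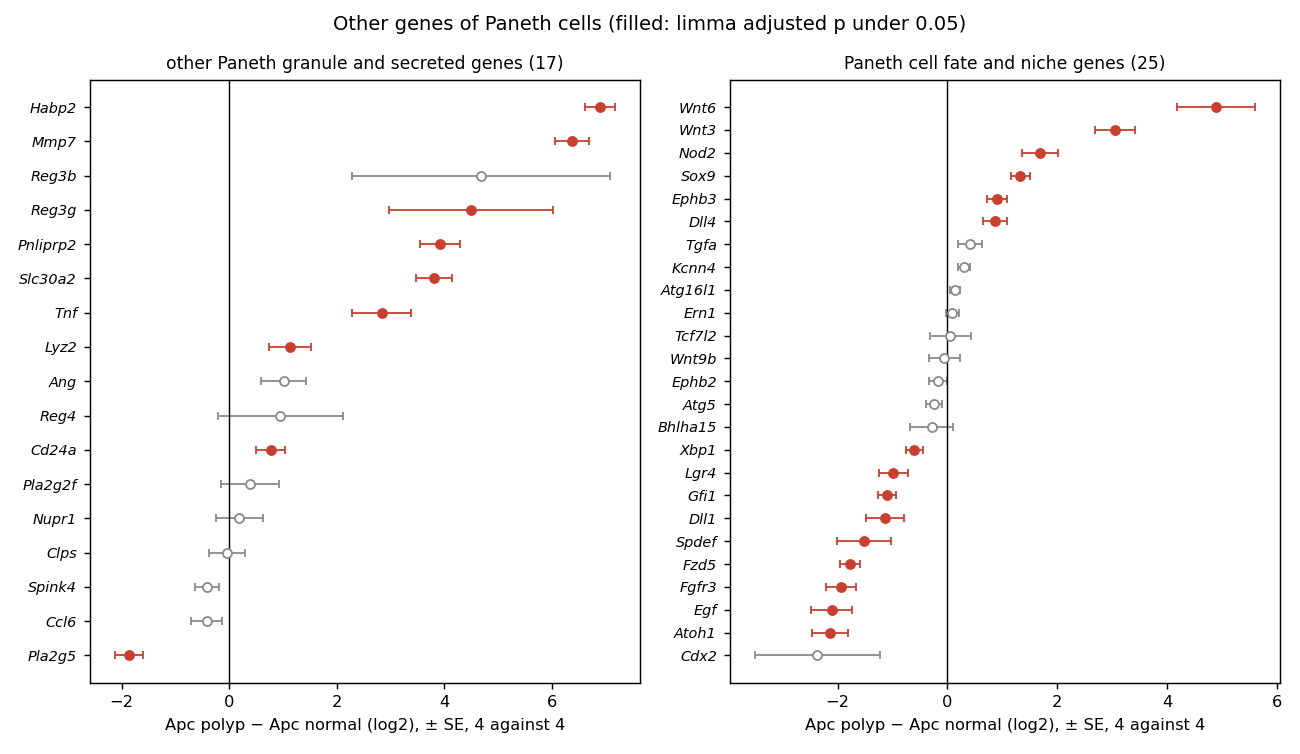
Log2 differences (± SE, 4 arrays against 4) between polyps and Apc normal tissue of 17 other Paneth granule and secreted genes (left) and 25 Paneth cell fate and niche genes (right), with filled points for limma adjusted p under 0.05. On the left 8 genes rose and 1 fell, and on the right 6 rose and 9 fell.

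Of the tested markers of other epithelial cells none passed as higher in polyps (limma), where 20.5% of all genes tested rose and 24.9% fell. Of 15 tested genes of small intestinal absorptive cells 0 rose and 10 fell, among them the retinol-binding protein Rbp2 (−3.75 ± 0.21, limma adjusted p = 2.81e-05) and the protease Mep1a (−3.94 ± 0.39, adjusted p = 0.000197). Their summed linear signal, relative to the 75th percentile, was 61.8 to 82.3 on wild-type, 48.8 to 257 on Apc normal and 4.60 to 10.5 on polyp arrays. Lct, Alpi, Apoa1, Apoa4 and Reg1 of the same list were well above background on all 4 arrays of no group and so were not tested. Among them Reg1 stood at −6.38, −2.76, −0.49 and −0.83 in polyps (3 of 4 arrays well above background), at −8.07 to −5.25 in Apc normal tissue (1 of 4), and at 3.89 on the wild-type array of mouse 108. Of 11 goblet cell genes 0 rose and 10 fell, such as Clca1 (−1.96 ± 0.22, adjusted p = 0.000307, −0.16 on its second probe) and Creb3l1 (−1.82 ± 0.17, adjusted p = 0.000147). Of 12 absorptive colonocyte genes 9 fell and 0 rose, among them Slc26a3 (−5.31 ± 0.42) and Car2 (−2.82 ± 0.22), with limma adjusted p = 9.22e-05 and 8.81e-05. Of 10 enteroendocrine genes 8 fell and 0 rose, with Chga at −3.36 ± 0.23 and Chgb at −3.12 ± 0.23. Of 8 general epithelium genes 5 fell, among them Krt19 (−0.71 ± 0.10) and Krt8 (−0.58 ± 0.09), but Krt8 did not pass after quantile normalization (−0.084, adjusted p = 0.503).

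Markers outside the epithelium moved as well, in the same comparison, where 20.5% of all genes tested rose and 24.9% fell. Of 9 neutrophil genes 5 rose in polyps and 0 fell. Cxcr2 was at least 12.6-fold and Mmp8 at least 21.3-fold higher (limma adjusted p = 0.000117 and 0.000958). Both were well above background on no Apc normal array, so their p sets polyp signal against readings at background. Of 9 macrophage genes the scavenger receptor Marco rose by 3.03 ± 0.42 and Cd68 by 1.01 ± 0.32 (adjusted p = 0.000823 and 0.0338). Leaving out normal tissue of mouse 103 or 107, or a polyp of mouse 106, 107 or 110, ended the Cd68 call, at adjusted p of 0.0526 to 0.0889. All 10 smooth muscle genes fell, among them Smtn (−2.44 ± 0.16, −1.25 on its second probe) and Mylk (−2.92 ± 0.20, −0.44 on its second probe), and their summed signal went from 310 to 425 on Apc normal to 30.3 to 59.4 on polyp arrays. Of 5 tested acinar genes 2 fell, Cela1 (−1.85 ± 0.31) and Cpb1 (−2.38 ± 0.84). The Cpb1 call (limma adjusted p = 0.0487) ended when any of 7 arrays was left out, at adjusted p of 0.0655 to 0.122, and held without the polyp of mouse 110. How far the makeup of the samples enters the levels of the 10 genes was not tested.

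The genes whose course over the 12 arrays was most like that of the 10 were found by the root mean square difference of centred log2 levels, as a description. Closest to the mean of the 9 probes of the 5 defensins were Mmp7 (1.15), Habp2 (1.46) and the Wnt ligand gene Wnt10a (1.51). Wnt10a read −8.53 to −7.85 in wild-type tissue, −3.76, −3.66, −8.03 and −2.83 in the normal tissue of mice 103, 106, 107 and 110, and 2.73, 2.35, 0.04 and 1.13 in their polyps. Like most defensin probes Wnt10a was, among Apc normal arrays, lowest in mouse 107. Mmp7 and Habp2 were not: they were lowest in mouse 103 (−0.97 and −5.56) and read 0.26 and −5.07 in mouse 107. Closest to Itln1 were R3hdml (0.41), the decoy receptor gene Tnfrsf11b (0.49) and the ceramide synthase gene Cers3 (0.50), each higher by over 5 log2 units in polyps than in Apc normal tissue. Closest to Lyz1 were Stx11 (0.40), Trex2 (0.41) and Rnf183 (0.46), and to Pla2g2a Wfdc18 (0.66), Cited1 (0.66) and R3hdml (0.72). Ang4 had the closest match of all in Ang3 (0.14), followed by Ang2 (0.34) and Rnase1 (1.39). Ang3 and Ang4 are copies of a gene family whose probes may share transcripts. Closest to Mptx1 were Slc37a2 (0.93), Tgm3 (1.23) and St8sia5 (1.23). They too were low in the normal tissue of mouse 107, at −4.47, −0.81 and −6.93, where the other Apc normal arrays read 1.56 to 3.62, 4.02 to 5.21 and 1.83 to 2.63.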

How the data were processed

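The measured unit is spot intensity, on a linear scale per the file headers. Before deposit, Agilent Feature Extraction 10.7.3.1, which the submitters' processing notes also name, had subtracted background and recorded no scaling between arrays. The deposited value table holds a linear ratio, and no source used here says how it was made. At least 99.8% of its entries per array matched the processed signal over a constant to within 1%, with column medians of 0.9999 to 1, so the table's scale and direction are known and genes were not centred.

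Outlier (1403) and control spots were dropped. Probe means of log2 processed signal were scaled to the 75th percentile of the array. RefSeq names of GRCm38.p6 were given by accession to 27508 probes, by symbol to 3544 and by synonym to 397, while 7980 kept the name in the file. Coordinates of probes are mm9. The brightest probe over all arrays stood for a gene. A gene was tested (20085 were) if well above background throughout at least 1 group of 4 arrays. limma 3.58.1 in R 4.3.3 was fitted to the 8 arrays of each comparison, two-sided, with Benjamini-Hochberg adjustment over all genes tested. Samples of a group come from different mouse numbers, and p-values measure only the spread between these samples.

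The 10 genes, the lists and the tests were chosen with earlier results of these data known. Named besides the 10 and their relatives are the 4 list genes of smallest p in each Paneth cell list, the 2 of smallest p in every other list (polyps against Apc normal tissue), list genes that show which members moved, and the 3 of most like course. Titles pair normal tissue and polyp by mouse number. Deviations from group means correlated across genes within mice 103, 106, 107 and 110 at r = 0.456, 0.170, 0.143 and 0.283, and between mice at −0.328 to 0.193. With slide as a random block the correlation was −0.0816.

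Alternative settings covered scaling (median, quantile, normexp with offset 50, the value table), the filter on dim probes, averaging of probes, 1 fit of 12 arrays, a variance trend, slide as a block or alone, mouse as a block, and each array left out. Using wild-type arrays at matching slide positions was added after seeing the data. It kept the wild-type arrays of mice 102 and 105 against Apc normal tissue and of mice 104 and 108 against polyps. The wild-type group was therefore smaller there, and fewer genes can pass for that reason too. In a test on simulated data for polyps against Apc normal tissue (20068 genes), 6%, 44%, 84% and 92% of 50 genes per size were recovered at log2 changes of 0.5, 1, 2 and 3. Only those genes were changed there, while 45.5% of all genes tested passed in the data. The adjusted cut-off therefore differs, and these shares do not give the recovery in the data.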

Additional observations from a re-analysis of the deposited data

Results flagged for a closer look

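In 30 sets of 4 arrays (10 genes in 3 groups), 2 held an array far from the other 3 by Dixon's measure, and chance alone marks about 1 in 20 such sets. Mptx1 in Apc normal tissue stood at −3.43 in mouse 107, with a gap to the nearest array of 0.845 of the range. Defa26 in wild-type tissue stood at −6.62 in mouse 102, with a gap of 0.845 of the range, on a probe that was not well above background on any wild-type array.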

How the results depend on the processing

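The higher level of the 5 defensins in polyps kept its direction under every alternative run. The mean over them was 8.67 above wild-type tissue with normexp (11.55 otherwise), and that for Apc normal over wild-type tissue was 2.0 (4.07 otherwise). In the latter comparison normexp gave 2.60 for Defa36 and 0.96 for Defa21, below their log2 bounds of 3.93 and 1.14. Between polyps and Apc normal tissue the lowest log2 difference over all alternatives was 2.07 for Cxcr2, 3.06 for Mmp8 and 0.91 for Wnt3. Each lay below the bound given for that gene. With mouse number as a replicate block, 9323 genes differed between polyps and Apc normal tissue against 9131 without it, and 8 of the other Paneth granule genes rose in both, and the pairing changed no count of the 2 Paneth cell lists there. Counts of the other lists were not run with the block.

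The count of those granule genes that rose in polyps over Apc normal tissue was 5 without a filter on dim probes, and 5 to 9 with 1 array left out. The count that fell in polyps against wild-type tissue was 2, and 1 under quantile normalization or normexp. The comparison of normal tissue between genotypes depended most on the processing. Its 34 genes became 3 with normexp, 2 without a filter, 14 with a variance trend, 226 with 12 arrays in 1 fit, 814 with slide as a random block, 0 by limma with matching slide positions (2149 at an unadjusted p under 0.05), and 2 to 530 with 1 array left out (530 without Apc normal mouse 103). Its 2 granule genes, Mmp7 and Habp2, became 1 with normexp, without a filter, with probes averaged or with a variance trend. The count was 0 with matching positions, 4 with the random block, and 1 to 4 with 1 array left out. A filter in both groups removed both genes before the test, as Mmp7 was well above background on 2 of 4 wild-type arrays and Habp2 on 0. Their loss there was set by the filter, and 0 of the 14 genes left passed. Fate and niche genes that were higher numbered 1 in the fit of 12 arrays and 2 with the random block, and 0 to 1 were lower with 1 array left out. The cause was not tested.

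Small differences between the genotypes in normal tissue changed sign. Wnt3 was −0.046 under quantile normalization, Krt19 was 0.038 there and 0.0077 with normexp, and Fzd5 was 0.030 with probes averaged. With matching positions Ang4 was 1.38, Pnliprp2 0.54, Wnt3 −0.073, Sox9 0.10, Chgb 0.093 and Cd68 −0.16. With 1 array left out the ranges were −1.86 to 0.051 for Ang4, −0.30 to 0.63 for Pnliprp2, −0.046 to 0.27 for Wnt3, −0.25 to 0.052 for Sox9 and −0.15 to 0.41 for Cd68. Dim probes limit all comparisons with wild-type tissue for the defensins.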
